A study of Mus musculus with 3 samples.

Results

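The genes described here are 6 interferon regulatory factors (IRFs), Irf1, Irf2, Irf3, Irf4, Irf5 and Irf8, out of 22548 genes counted, with the identifiers ENSMUSG00000018899, ENSMUSG00000031627, ENSMUSG00000003184, ENSMUSG00000021356, ENSMUSG00000029771 and ENSMUSG00000041515 in that order. They were taken as a list of family members, by a rule that sets no threshold on their values, and all 6 had enough counts to be described in every comparison. The cells were dendritic cells that had migrated from the ear skin to its draining lymph node in mice given MC903 on the ears. MC903 is an analogue of vitamin D that causes skin inflammation. Treatment was on days 0, 2 and 4 and sorting on day 5. The sort took B220-, XCR1- and CD326- cells with high MHC class II and low to intermediate CD11c, a gate meant to leave out Langerhans cells and type 1 dendritic cells. CITE-seq read the mRNA of each cell together with oligonucleotide tags on antibodies to CD11b, CD8a, CD172a and CD301b.

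All mice carried the Siglech-iCre transgene with a ROSA26 red reporter (RFP) that Cre switches on by removing a stop cassette, and BFP, a blue reporter, in place at 1 Tnfsf4 allele. Tnfsf4 encodes OX40L, a costimulatory ligand for T cells. RFP therefore marks cells in which the Siglech-driven Cre acted at any earlier time, not cells that express Siglech at sorting. Of the 4 sorted populations, 2 had RFP, which were BFP+RFP+ and BFP-RFP+, and 2 lacked it, which were BFP+RFP- and BFP-RFP-. Each received its own hashtag antibody, and 5200, 5200, 10400 and 5200 cells were pooled, in that order. The mRNA, antibody tag and hashtag libraries came from the 1 pool and shared the same 6079 barcodes, and the number of mice is not given in the labels used here. Each population is therefore 1 sample without a replicate, no test between populations was made, and every interval below covers counting error only. UMIs are unique molecular identifiers, 1 per captured molecule. Intervals of levels, ratios and UMI shares treat UMIs as independent draws. They leave out the spread between cells, and are too narrow where counts vary between cells. Cells were kept where 1 hashtag made up 80% or more of the hashtag UMIs, mRNA UMIs reached 1000 and mitochondrial UMIs did not pass 10%. There were 842 cells of BFP+RFP+, 982 of BFP-RFP+, 2185 of BFP+RFP- and 1014 of BFP-RFP-, with median depths of 15182, 14330, 14850 and 13884 mRNA UMIs.

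IRFs are transcription factors that share a DNA-binding domain recognising GAAA repeats. IRF1 activates genes induced by interferon gamma and IRF2 competes with it at many of the same sites. IRF3 is present in most cells and is switched on by phosphorylation downstream of nucleic acid sensors, and IRF5 acts downstream of Toll-like receptors. IRF4 and IRF8 bind DNA weakly alone and act with partners such as PU.1 and BATF family members. In mice, IRF8 is needed for type 1 dendritic cells, and IRF4 for the migration of type 2 dendritic cells from skin to lymph node and for their promotion of type 2 T cell responses.

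The label of the cells was checked against marker lists. All 13 migratory dendritic cell markers, among them Ccr7 and Fscn1, were detected in each population. So were all markers on the macrophage and monocyte, T and NK cell and B cell lists, so detection alone does not tell these types apart. Of the genes that define the gated-out types, Xcr1 had 1 to 5 and Cd207 1 to 3 UMIs per population, and Epcam, which encodes CD326, had 19 to 70. Markers of other cells were present, and 16.1% of kept cells carried at least 3 UMIs from at least 2 markers of macrophages, of T and NK cells, of B cells or of granulocytes and mast cells. Levels are given as UMIs per 1000000 mRNA UMIs (CPM). The migratory dendritic cell list summed to 11704.5 to 12423.8 CPM over the populations. The 12 macrophage and monocyte markers summed to 256 CPM in BFP+RFP+, 660 in BFP-RFP+, 174 in BFP+RFP- and 662 in BFP-RFP- cells. The T and NK cell list ran from 154 to 228 CPM and the B cell list from 96.1 to 137 over the populations. Of the gated-out types, the type 1 dendritic cell list summed to 77.4 CPM in BFP+RFP+, 161.9 in BFP-RFP+, 65.6 in BFP+RFP- and 101.7 in BFP-RFP- cells. The Langerhans cell list ran from 27.9 to 44.6 CPM. For comparisons of whole populations, and of cells grouped by antibody tag over all populations, member ratios are also given without these cells in 2 cases. These are where leaving them out changed whether the interval of a log2 ratio held 0, or whether that ratio passed 0.5 in size. Most such comparisons of Irf4 and Irf8 are given too. Ratios by tag within a single population, and between populations within a tag group, were not recomputed without these cells.

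The promoters of 4 members are shown, 3 with and 1 without a match to the letters of a STAT site, as the sequence context of the genes described below. Each window runs from 250 bases before to 50 bases after the start of the gene, 5′ to 3′ on the + strand, as given by RefSeq on GRCm38.p6, which is not the build of the counts. The windows are chr11:53769764-53770063 for Irf1, chr8:46739495-46739794 for Irf2, chr13:30748983-30749282 for Irf4 and chr8:120736108-120736407 for Irf8. Capitals mark matches to TTCNNNGAA (the STAT or GAS motif), the core of the interferon-stimulated response element (ISRE, read as GAAA, any 2 bases, GAAA) or the composite element of ETS factors and IRFs (EICE, read as GGAA, any 2 bases, GAAA), each searched on both strands.
Irf1: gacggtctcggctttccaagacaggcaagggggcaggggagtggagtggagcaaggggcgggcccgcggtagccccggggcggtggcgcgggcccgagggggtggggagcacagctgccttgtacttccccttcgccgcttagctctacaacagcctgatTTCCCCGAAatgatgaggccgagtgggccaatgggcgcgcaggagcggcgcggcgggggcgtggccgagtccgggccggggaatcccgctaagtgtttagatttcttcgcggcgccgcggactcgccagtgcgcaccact
Irf2: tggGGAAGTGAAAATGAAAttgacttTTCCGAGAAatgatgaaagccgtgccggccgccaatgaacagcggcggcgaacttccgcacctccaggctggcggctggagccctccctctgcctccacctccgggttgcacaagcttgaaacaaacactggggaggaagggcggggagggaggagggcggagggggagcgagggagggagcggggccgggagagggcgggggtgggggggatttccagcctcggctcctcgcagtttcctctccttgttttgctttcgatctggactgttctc
Irf4: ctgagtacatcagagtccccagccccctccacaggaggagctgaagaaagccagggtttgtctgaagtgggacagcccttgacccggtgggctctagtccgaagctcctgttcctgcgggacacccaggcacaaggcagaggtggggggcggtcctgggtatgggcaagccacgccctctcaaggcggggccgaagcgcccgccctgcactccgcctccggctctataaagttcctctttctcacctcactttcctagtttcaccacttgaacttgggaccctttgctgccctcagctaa
Irf8: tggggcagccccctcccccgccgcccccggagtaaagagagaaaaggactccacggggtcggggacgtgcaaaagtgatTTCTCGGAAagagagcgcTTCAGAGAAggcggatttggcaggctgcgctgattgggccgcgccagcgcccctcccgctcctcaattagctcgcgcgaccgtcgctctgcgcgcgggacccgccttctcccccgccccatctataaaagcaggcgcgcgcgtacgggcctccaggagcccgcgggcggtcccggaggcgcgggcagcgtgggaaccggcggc

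The Irf1 window holds 1 GAS match, TTCCCCGAA, whose first base is at -90 from the gene start. The Irf8 window holds 2, TTCTCGGAA at -171 and TTCAGAGAA at -153. The Irf2 window holds all 3 motifs, with GGAAGTGAAA at -247, GAAAATGAAA at -241 and TTCCGAGAA at -224, the first 2 of which overlap. No match to any of the 3 motifs was found in the windows of Irf3, Irf4 or Irf5, nor in a second window each for Irf1 and Irf8. Of 32851 promoter windows of the same length, 8.30% hold TTCNNNGAA, 3.44% hold the ISRE core and 2.72% hold the EICE. These are matches of letters, and binding was not measured.

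Irf8 was lower and Irf4 higher in both RFP+ populations than in both RFP- populations. Irf8 stood at 68.5 CPM (64.2 to 72.9) in BFP+RFP+ cells, 95.1 (90.3 to 100.01) in BFP-RFP+, 120.6 (117.1 to 124.3) in BFP+RFP- cells and lastly 127.3 (121.6 to 133.2) in BFP-RFP- cells. The intervals of the RFP- populations overlapped, and each other step between neighbours exceeded the counting error. Irf4 stood at 124.4 (118.7 to 130.3) in BFP+RFP+ cells, 135.5 (129.8 to 141.4) in BFP-RFP+, 105.0 (101.6 to 108.4) in BFP+RFP- and 95.7 (90.8 to 100.8) in BFP-RFP- cells. The order of Irf4 was thus nearly the reverse of that of Irf8, except that Irf4 was highest in BFP-RFP+ rather than in BFP+RFP+ cells, where the intervals touched narrowly.

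**Figure D1:**
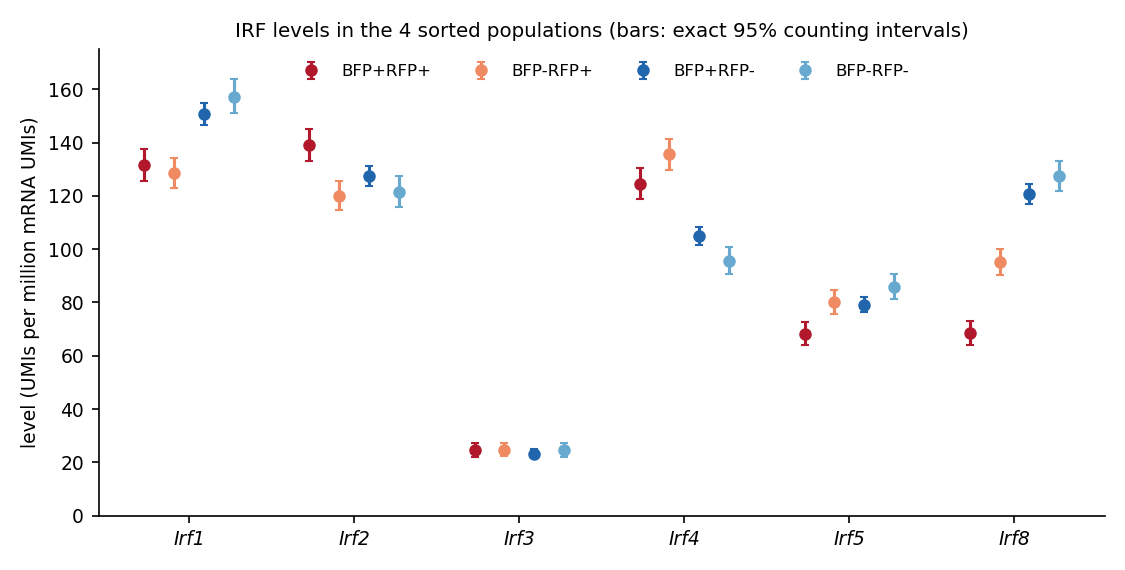
Level of each IRF gene (CPM, y axis) in the BFP+RFP+, then BFP-RFP+, then BFP+RFP-, then BFP-RFP- population, with exact 95% counting intervals and no replicates. Irf8 runs between 68.5 and 127.3 and is lowest in BFP+RFP+ cells, Irf4 is higher in both RFP+ populations, and Irf3 lies near 24 in all 4.

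Irf1 followed the direction of Irf8 with a smaller range, at 131.5 CPM in BFP+RFP+ cells, 128.4 in BFP-RFP+, 150.7 in BFP+RFP- and 157.2 in BFP-RFP- cells. Both RFP+ populations lay below both RFP- populations, and within each RFP state the intervals overlapped. Irf2 was highest in BFP+RFP+ cells at 139.0 (132.9 to 145.2), against 120.1 in BFP-RFP+, 127.4 in BFP+RFP- and 121.5 in BFP-RFP- cells. Irf5 was lowest in BFP+RFP+ cells at 68.2 (63.9 to 72.6), against 80.1 in BFP-RFP+, 79.2 in BFP+RFP- and 85.8 in BFP-RFP- cells. Irf3 ran from 23.3 to 24.8 with all intervals overlapping. Levels of different genes are set side by side as counts only. Differences in capture between genes were not measured, and whether intronic reads were counted is not stated. Irf1 had the most UMIs of the members in both RFP- populations. Irf2 and Irf1 overlapped at the top in BFP+RFP+ cells, and Irf4 and Irf1 in BFP-RFP+ cells. Outside the list, Irf9 was even at 37.1 to 39.2 CPM, and Irf7 was scarce at 3.0, 9.3, 4.0 and 7.6 in the same order of populations.

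RFP+ cells were compared with RFP- cells within each BFP state. Within BFP+, Irf8 was lower in RFP+ cells by a log2 ratio of -0.82 (-0.92 to -0.72), which lies at percentile 2.43 of the 10139 genes with at least 100 UMIs. Within BFP-, its ratio was -0.42 (-0.52 to -0.32), at percentile 5.64 of 9612 genes. For Irf4 the log2 ratio of RFP+ over RFP- was positive in both states, 0.25 (0.16 to 0.33) among BFP+ and 0.50 (0.40 to 0.60) among BFP- cells. Irf1 was lower in both states, at -0.20 (-0.27 to -0.12) within BFP+ and -0.29 (-0.38 to -0.21) within BFP-. Irf5 was at -0.22 (-0.32 to -0.11) within BFP+ and -0.10 (-0.21 to 0.01) within BFP-. Irf2 stood at 0.13 (0.05 to 0.20) within BFP+ and -0.02 within BFP-, and Irf3 at 0.08 and 0.01 with intervals on both sides of 0. Past a log2 ratio of 0.5 in size, which is 1.41-fold, 1 of 6 members was lower within BFP+, Irf8, where 6.79% of all genes were lower, 4.34% higher and 11.1% either. Within BFP-, 1 of 6 was higher by that rule, Irf4, which lay at the boundary, where 5.21% of all genes were higher, 3.91% lower and 9.12% either. The medians over all genes were -0.03 and -0.01.

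BFP+ cells were compared with BFP- cells within each RFP state. Within RFP+, Irf8 was lower in BFP+ cells at -0.47 (-0.59 to -0.36), Irf5 at -0.23 (-0.36 to -0.11) and Irf4 at -0.12 (-0.22 to -0.03), and Irf2 was higher at 0.21 (0.12 to 0.30). Within RFP-, Irf4 was higher in BFP+ cells at 0.13 (0.04 to 0.22) and Irf5 lower at -0.12 (-0.21 to -0.02), while Irf8 at -0.08 (-0.16 to 0.00) was near 0. For Irf1 the ratios were 0.03 within RFP+ and -0.06 within RFP-, for Irf3 -0.01 and -0.08, and for Irf2 0.07 within RFP-, with 0 inside each interval. No member passed 0.5 in size in either, against 11.8% of all genes within RFP+ (2.53% higher, 9.31% lower) and 7.97% within RFP- (2.58% higher, 5.39% lower). Medians over all genes were -0.09 and -0.07, so Irf4 within RFP+ lay close to the median, at percentile 44.5. With size factors from DESeq2, which shifted every gene in that comparison by 0.11, Irf4 stood at -0.018. Within RFP- these factors shifted every gene by 0.07. Another scaling, TMM, shifted every gene by 0.10 within RFP+ and 0.08 within RFP-. With either scaling the interval of Irf5 within RFP- held 0, and those of Irf1 within RFP+ and Irf2 within RFP- lay above 0. The BFP ratio within RFP+ minus that within RFP- was -0.40 (-0.54 to -0.26) for Irf8, -0.26 (-0.38 to -0.13) for Irf4 and 0.14 (0.02 to 0.26) for Irf2, and for Irf1, Irf3 and Irf5 the interval held 0. The 4 comparisons share populations and so are not independent of each other.

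**Figure D2:**
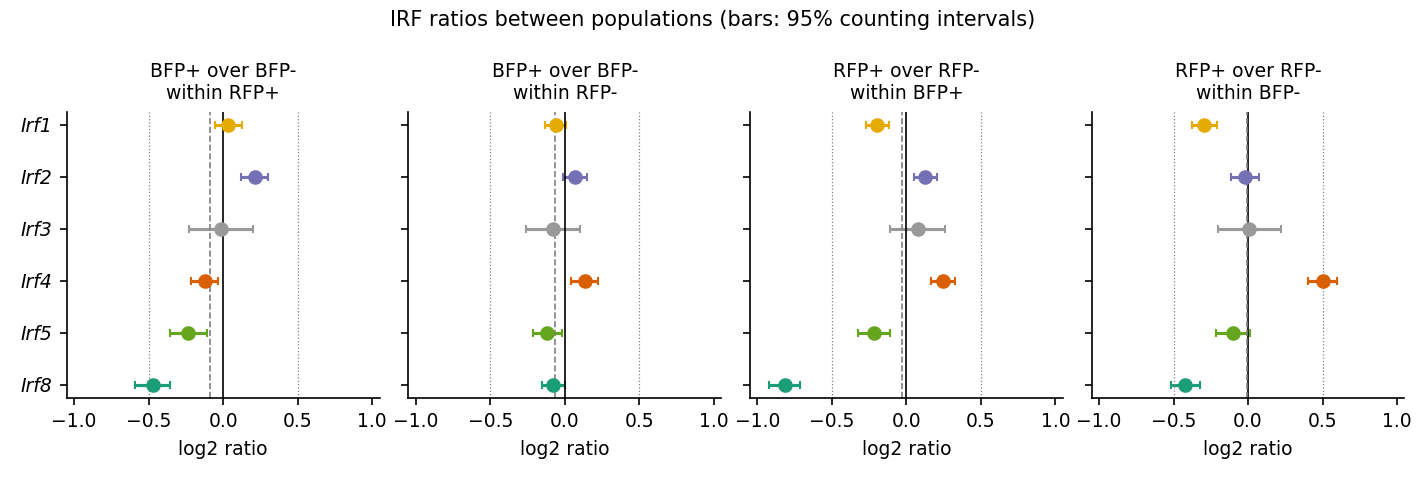
Log2 ratio of each IRF gene (x axis) for BFP+ over BFP- cells within RFP+ and within RFP-, then RFP+ over RFP- cells within BFP+ and within BFP-. Bars are 95% counting intervals, dashed lines the median of all genes and dotted lines 0.5 in size. Irf8 lies at -0.82 and -0.42 and Irf4 at 0.25 and 0.50 in the RFP comparisons.

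The RFP differences of Irf8 and Irf4 were of similar or larger size without the cells that carried markers of other types, and some other differences were smaller. Without the 809 such cells, Irf8 in RFP+ over RFP- cells stood at -1.01 within BFP+ and -0.42 within BFP-, and Irf4 at 0.27 and 0.59. Irf8 in BFP+ over BFP- cells within RFP+ was then -0.64, past 0.5 in size. Irf1 in RFP+ over RFP- cells stood at -0.17 within BFP+ and -0.37 within BFP- without these cells. For Irf2 the RFP ratio within BFP+ was then 0.05 (-0.04 to 0.14), so the interval held 0. For Irf5 in BFP+ over BFP- cells within RFP- it was -0.08 (-0.18 to 0.03), likewise with 0 inside. Irf1 in BFP+ over BFP- cells within RFP- was then -0.14 (-0.22 to -0.07), with the interval below 0. A looser hashtag share of 60% in place of 80% brought the Irf8 ratio of BFP+ over BFP- cells within RFP+ to -0.27 and that of RFP+ over RFP- cells within BFP+ to -0.64.

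Markers of plasmacytoid dendritic cells, which express Siglech, differed with RFP. The list of 10, which includes the transcription factor genes Spib and Tcf4, summed to 1177 CPM in BFP+RFP+, 981 in BFP-RFP+, 829 in BFP+RFP- and 699.6 in BFP-RFP- cells. In RFP+ over RFP- cells within BFP+, 3 of 5 markers with enough counts were higher by at least 0.5 and none was lower, with a median of 0.56. Of all genes, 4.34% were higher and 6.79% lower, with a median of -0.03. Within BFP-, 3 of 6 were higher and none was lower, with a median of 0.46, where 5.21% of all genes were higher and 3.91% lower (median -0.01). Without the cells carrying markers of other types, 3 of 4 were higher within BFP+ (median 0.60) and 1 of 4 within BFP- (median 0.39). Of 4 type 1 dendritic cell markers with enough counts, 1 was higher within BFP+ (median 0.23) and 2 within BFP- (median 0.50), and none was lower. Cells with plasmacytoid or type 1 markers were not among those left out above, and their part in the RFP differences of the members was not tested.

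The share of Irf4 in the summed Irf4 and Irf8 UMIs gives the balance of both genes in 1 value. It was 64.5% (62.7 to 66.3) in BFP+RFP+ cells, 58.8% (57.2 to 60.4) in BFP-RFP+, 46.5% (45.4 to 47.6) in BFP+RFP- and 42.9% (41.2 to 44.6) in BFP-RFP- cells. No intervals of the 4 populations overlapped. In counts, BFP+RFP+ cells had 1759 Irf4 and 968 Irf8 UMIs, BFP-RFP+ cells 2134 and 1497, BFP+RFP- cells 3736 and 4294, and BFP-RFP- cells 1424 and 1894.

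The antibody tags were used to place the members by surface protein. The cells of each population were split by tag UMIs into lower, middle and upper groups of nearly equal size, and the groups were summed over populations. The genes of the tags followed their proteins. Cd8a stood at 53.6 CPM in the upper against 2.24 in the lower CD8a group, Sirpa (CD172a) at 132.8 against 36.1, Mgl2 (CD301b) at 34.3 against 5.56, and Itgam (CD11b) at 4.03 in the upper CD11b group against 0 UMIs in the lower. Upper groups were also deeper, with median mRNA UMIs between 17079 and 17744 against 11658 to 12647 in lower groups, and levels are therefore given as CPM.

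Irf8 followed CD11b more than any other member. It stood at 68.3 CPM in the lower, 85.7 in the middle and 152.2 in the upper CD11b group, a log2 ratio of upper over lower of 1.16 (1.07 to 1.24). The upper group was higher in 4 of 4 populations, at 87.4 against 55.1 in BFP+RFP+, 130 against 65.1 in BFP-RFP+, 188 against 67.3 in BFP+RFP- and 157 against 86.1 in BFP-RFP- cells. By CD8a the order was the opposite, with 149.9, 114.1 and 75.5 CPM in the lower, middle and upper groups and a log2 ratio of -0.99 (-1.07 to -0.91). That difference was uneven, at 64.1 in the upper against 199 in the lower group of BFP+RFP- cells (-1.64) and 51.2 against 96.7 in BFP+RFP+ cells (-0.92), but 82.4 against 97.3 in BFP-RFP+ cells (-0.24) and 121 against 129 in BFP-RFP- cells (-0.09, -0.26 to 0.07). Irf8 was also higher with CD172a, by 0.75 (0.67 to 0.83), and with CD301b, by 0.61 (0.53 to 0.69), in all 4 populations each. With centred log ratios of the tags these became 0.26 and 0.23, and the ratio by CD8a -1.51.

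Irf4 followed CD8a and CD172a. By CD8a it stood at 88.2, 111.3 and 129.5 CPM in the lower, middle and upper groups, a log2 ratio of 0.55 (0.47 to 0.63), with the upper group higher in 4 of 4 populations by 0.21 to 0.74. By CD172a it stood at 96.0, 101.7 and 131.1, a ratio of 0.45 (0.37 to 0.53). BFP+RFP+ cells did not share that difference, at 122 in the upper against 124 in the lower group, whereas BFP-RFP- cells had 124 against 68.9. By CD301b the ratio was 0.30 (0.22 to 0.37), again with nearly equal levels in BFP+RFP+ cells, 127 against 126. By CD11b the middle group was highest, at 114.5, 126.4 and 100.3, and the ratio of upper over lower was -0.19 (-0.27 to -0.12). Irf4 was lower in the upper CD11b group of 3 populations but higher in BFP-RFP+ cells, at 132 against 110. The sizes for Irf4 depended on how tags and depth were treated. With tag UMIs per mRNA UMI the ratios were -0.45 by CD11b, 0.35 by CD8a and 0.10 by CD301b, and between cells of the upper and lower 10% of CD172a it was 1.06.

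**Figure D3:**
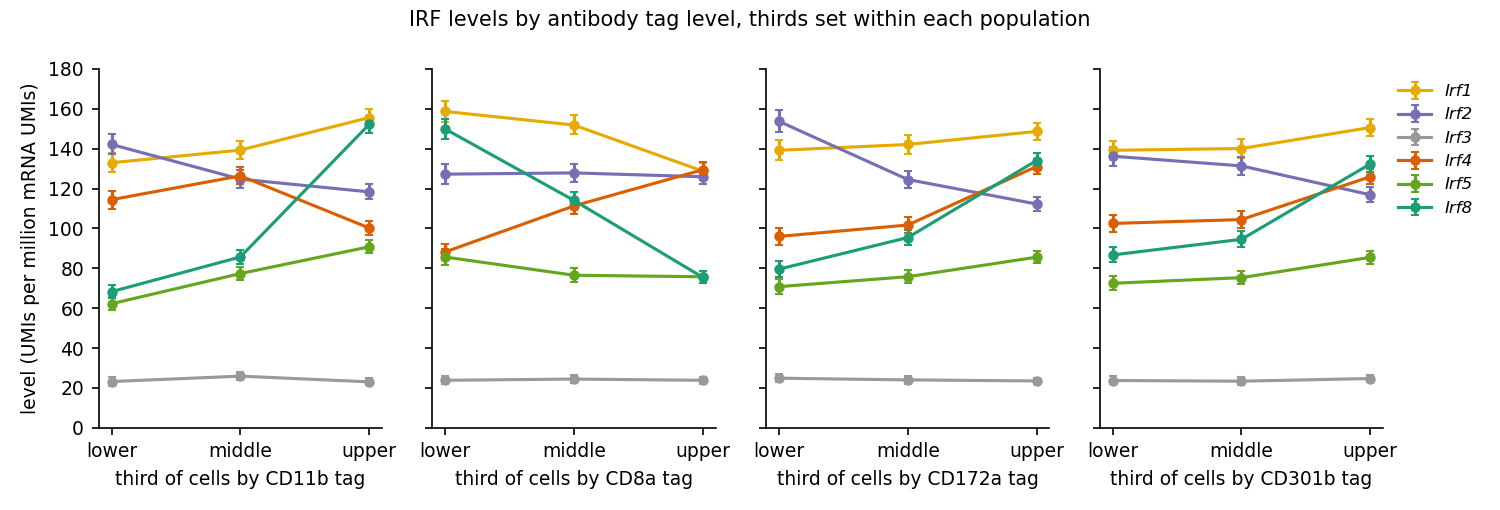
Level of each IRF gene (CPM, y axis) in the lower, middle and upper groups of cells by each of the 4 antibody tags (x axis), groups set within each population, with exact 95% counting intervals. By CD11b, Irf8 runs from 68.3 to 152.2. By CD8a, Irf8 and Irf4 run in opposite directions, from 149.9 to 75.5 and from 88.2 to 129.5.

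Irf5 was higher in the upper CD11b group at 62.2, 77.4 and 90.8 CPM from lower to upper, a ratio of 0.54 (0.45 to 0.64), with 4 of 4 populations in that direction. Irf1 was higher with CD11b by less, at 133.0, 139.3 and 155.6, and was lower with CD8a, at 158.7, 151.9 and 128.7. Irf1 did not keep 1 direction over populations for any tag. Irf2 went the other way from Irf8 by CD172a, at 153.8, 124.6 and 112.3 (-0.45, -0.52 to -0.39), and was lower in the upper CD11b, CD172a and CD301b groups of all 4 populations. By CD301b its ratio was -0.22, but 0.045 (-0.02 to 0.11) with centred log ratios of the tags. Irf3 kept between 23.1 and 25.9 across all groups of the 4 tags. Past 0.5 in size, 2 of 6 members were higher with CD11b, where 7.59% of all genes were higher and 11.3% lower. Of these, Irf5 was at 0.46 (0.36 to 0.55) without the cells carrying markers of other types, which leaves 1 of 6. With CD8a 1 was higher and 1 lower, where 4.00% and 9.77% of all genes were. With CD172a and with CD301b 1 each was higher, Irf8 in both, where 5.83% and 2.93% of all genes were higher and 13.0% and 8.95% lower. The medians over all genes ran from -0.10 to -0.08.

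Markers of other cells moved with the tags too. The macrophage and monocyte list summed to 767 CPM in the upper against 82.8 in the lower CD11b group, and to 289 in the upper against 541 in the lower CD8a group, with the complement genes C1qa, C1qb and C1qc among its members. The B cell list stood at 53.3 in the upper against 271 in the lower CD11b group. Without the cells carrying markers of other types, Irf8 by CD11b stood at 1.16 and by CD8a at -1.04, and Irf4 by CD8a at 0.54. The difference of Irf4 by CD11b was then -0.33.

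The CD11b and CD8a groups were crossed to follow the Irf4 share of Irf4 plus Irf8 UMIs. It was 71.4% (68.8 to 74.0) in cells with upper CD8a and lower CD11b and 24.3% (22.7 to 26.0) in cells with lower CD8a and upper CD11b. In upper CD8a, lower CD11b cells, Irf4 stood at 120.6 and Irf8 at 48.2 CPM. In lower CD8a, upper CD11b cells, Irf4 stood at 67.3 and Irf8 at 209.3. Within each CD11b group the share was higher with more CD8a, and within each CD8a group it was lower with more CD11b. By CD172a and CD301b alone, with which both genes were higher, the share varied little. It was 49.4% in the upper against 54.7% in the lower CD172a group and 48.8% against 54.2% by CD301b.

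**Figure D4:**
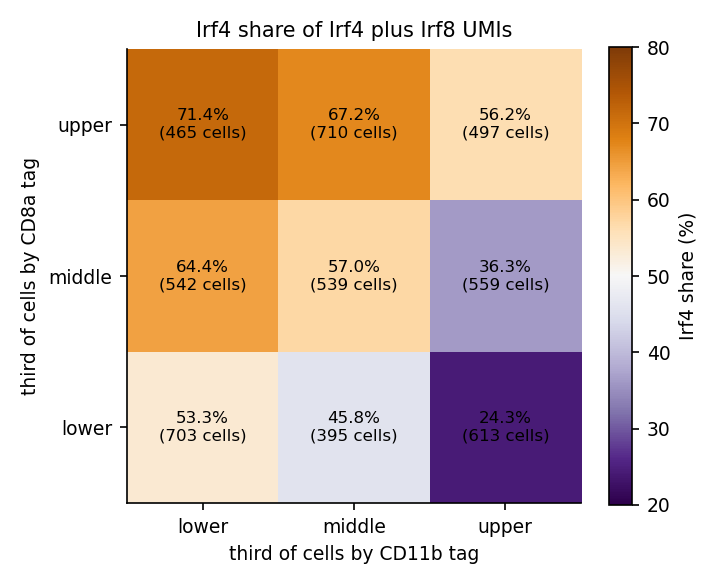
Irf4 share of summed Irf4 and Irf8 UMIs (colour, %) in cells crossed by CD11b tag group (x axis) and CD8a tag group (y axis), with cell numbers. The share runs from 24.3% in cells with upper CD11b and lower CD8a to 71.4% in cells with lower CD11b and upper CD8a.

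The populations differed in their tags. With groups set over all cells together, the upper CD8a group held 58.1% of BFP+RFP+ against 27.2% of BFP+RFP- cells, and 37.4% of BFP-RFP+ against 20.9% of BFP-RFP- cells. The upper CD11b group held 19.6% of BFP+RFP+ against 37.5% of BFP+RFP- cells, and 28.0% of BFP-RFP+ against 40.6% of BFP-RFP- cells. RFP+ and RFP- cells were therefore also compared within each tag group, in 24 comparisons over the 4 tags, the 3 groups and both BFP states. These regroup the same cells of the same 4 populations once per tag, so they are not independent and their counts are descriptions. Irf8 was lower in RFP+ cells in all 24, by -0.16 to -1.03, and the counting interval lay below 0 in 22. Irf4 was higher in RFP+ cells in 23 of 24, with the interval above 0 in 20. Irf1 was lower in 21 of 24, with the interval below 0 in 18.

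BFP+ and BFP- cells were compared in the same way within each tag group and RFP state. Irf8 was lower in BFP+ cells in 19 of these 24 comparisons, with the interval below 0 in 14, and higher in 5, each with the interval above 0. In lower CD8a cells Irf8 was higher with BFP, at 190.8 CPM in BFP+RFP- against 127.2 in BFP-RFP- cells (0.58, 0.46 to 0.71) and at 126.9 in BFP+RFP+ against 95.1 in BFP-RFP+ cells (0.42, 0.15 to 0.68). In upper CD8a cells it was lower with BFP, at 59.2 in BFP+RFP- against 99.6 in BFP-RFP- cells (-0.75, -0.93 to -0.57) and at 52.8 in BFP+RFP+ against 85.3 in BFP-RFP+ cells (-0.69, -0.86 to -0.52). The pooled BFP ratio of Irf8 within RFP-, close to 0, thus held differences in both directions. Irf4 was higher in BFP+ cells in 15 of 24, with the interval above 0 in 8, and lower in 9, with the interval below 0 in 7. Within RFP+, where the pooled ratio was -0.12, Irf4 in lower CD11b cells was 131.1 in BFP+RFP+ against 109.7 in BFP-RFP+ cells (0.26, 0.09 to 0.43). In lower CD172a cells it was 131.9 in BFP+RFP+ against 108.5 in BFP-RFP+ cells (0.28, 0.11 to 0.45).

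The size of the RFP differences varied with the tag group. In upper CD11b cells, Irf8 stood at 103.9 in BFP+RFP+ against 180.7 in BFP+RFP- cells, a ratio of -0.80 (-0.95 to -0.65). In lower CD11b cells it stood at 55.0 against 67.3, a ratio of -0.29 (-0.49 to -0.09). In upper CD8a cells it stood at 52.8 in BFP+RFP+ against 59.2 in BFP+RFP- cells, a ratio of -0.16 (-0.33 to 0.00). The ratio was equally small in upper CD11b cells without BFP, at 139.2 in BFP-RFP+ against 155.2 in BFP-RFP- cells (-0.16, -0.29 to -0.02). In upper CD8a cells with BFP, Irf4 was 131.5 in BFP+RFP+ against 127.7 in BFP+RFP- cells (0.04, -0.07 to 0.15). Among lower CD8a cells without BFP, Irf4 was 123.5 in BFP-RFP+ against 72.5 in BFP-RFP- cells (0.77, 0.57 to 0.97).

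The balance was also read in single cells, after each cell was thinned to 5000 UMIs so that depth was equal, which left out 377 shallower cells. More Irf4 than Irf8 UMIs were found in 36.3% (32.9 to 39.7) of BFP+RFP+, 35.8% (32.6 to 39.0) of BFP-RFP+, 27.4% (25.5 to 29.4) of BFP+RFP- and 24.9% (22.1 to 27.8) of BFP-RFP- cells. More Irf8 than Irf4 UMIs were found in 12.3% (10.1 to 14.8), 16.4% (14.1 to 19.0), 20.6% (18.8 to 22.4) and 23.0% (20.3 to 25.8) of the same populations. Cells with neither made up 43.2% to 48.5%, and 34.3% of all cells lay within 1 UMI of equal numbers while having at least 1 UMI of either gene, so the classes are ranges and not cell types. Without thinning, cells with more Irf4 made up 52.7%, 48.2%, 43.3% and 35.3% in the same order.

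**Figure D5:**
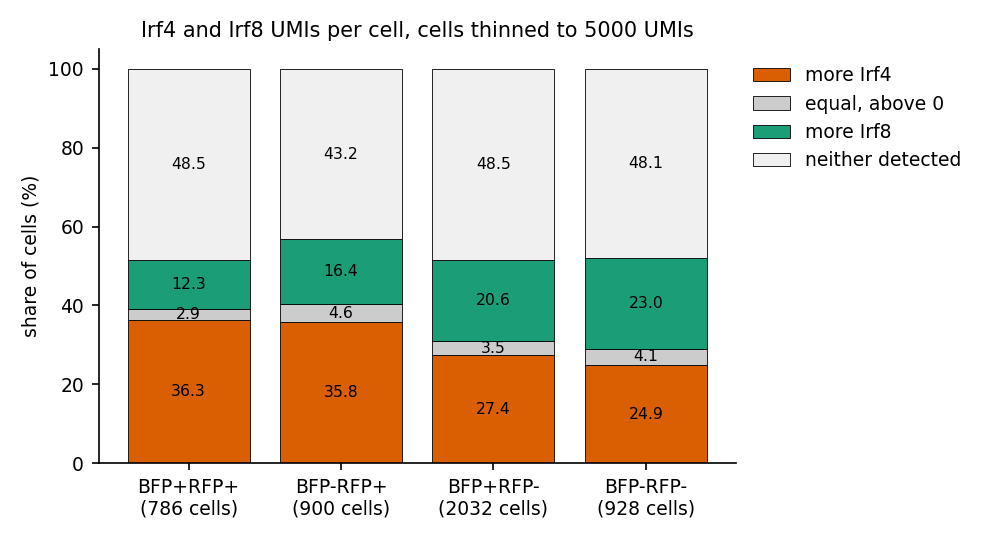
Share of cells (%, y axis) with more Irf4 than Irf8 UMIs, equal numbers above 0, more Irf8 and neither, in BFP+RFP+, then BFP-RFP+, then BFP+RFP-, then BFP-RFP- cells, all thinned to 5000 UMIs. Cells with more Irf4 make up 36.3%, 35.8%, 27.4% and 24.9%, and cells with more Irf8 12.3%, 16.4%, 20.6% and 23.0%.

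Detection of either gene did not exclude the other. Both were seen in 7.1%, 9.4%, 8.3% and 8.7% of the thinned cells of the 4 populations. Irf8 was detected in 23.2% (21.2 to 25.2) of cells with Irf4 and in 25.7% (24.1 to 27.3) of cells without, and by Irf4 UMIs of 0, 1, 2 and 3 or more in 25.7%, 22.8%, 22.7% and 26.2%. In cells thinned to 10000 UMIs, Irf8 was detected in 35.7% (33.6 to 37.7) of those with Irf4 and 40.3% (38.0 to 42.6) of those without. These intervals did not overlap. In upper CD8a cells at that depth the order was the other way, 31.7% against 27.4%, with overlapping intervals. Without thinning, where depth was not equal, the order over all cells was also the other way, 44.7% against 38.1%. A relation of Irf4 and Irf8 within cells was not tested.

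Detection was also compared with that in cells with at least 10 UMIs from at least 3 T and NK cell markers. Without thinning, Irf8 had a UMI in 23.7% of these 241 cells (median 9634 UMIs) against 42.2% of the 4639 cells without such markers of any other type (median 14754 UMIs), at 51.1 against 107.0 CPM. Irf4 was detected in 34.0% against 62.8% and Irf5 in 22.8% against 58.3%. The T and NK marker cells also held migratory dendritic cell markers, at 5496 against 12711 CPM, and are thus not free of dendritic cell RNA. In the sorted populations the unthinned share with Irf8 was 36.8% in BFP+RFP+, 41.9% in BFP-RFP+, 41.97% in BFP+RFP- and 47.1% in BFP-RFP- cells. At 5000 UMIs per cell, the share with Irf8 in the same order was 17.6%, 23.9%, 26.1% and 28.7%. At that depth it was 11.3% (7.39 to 16.4) in 212 T and NK marker cells and 24.7% (23.4 to 26.0) in 4338 cells without such markers. Irf4 was detected in 17.5% against 37.2% and Irf5 in 10.4% against 30.2% of these. Irf1 stood at 37.3% against 43.4%, Irf2 at 49.1% against 44.3% and Irf3 at 11.8% against 10.3%. As the T and NK marker cells also held dendritic cell RNA, and their own expression was not separated, they set no background for any member.

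By the ratio of variance to mean, Irf8 was the most unevenly spread member from cell to cell. In thinned cells its variance was 2.90 times its mean, against 1.67 for Irf1, 1.49 for Irf4, 1.29 for Irf2, 1.22 for Irf5 and 1.03 for Irf3, where random sampling of equal cells would give a value near 1. A single thinned cell held up to 17 Irf8 UMIs. Without thinning, as in the summed counts, the ratio was 10.0 for Irf8 and 3.77 for Irf4, and cells then also differed in depth. The counting intervals of levels and ratios leave this spread out. Cells with at least 3 Irf8 UMIs numbered 242, or 5.2% of all, and made up 2.7% of BFP+RFP+, 5.0% of BFP-RFP+, 6.0% of BFP+RFP- and 5.9% of BFP-RFP- cells.

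Cells with at least 3 Irf8 UMIs were described by the readouts that did not choose them. Of these, 54.5% were in the upper CD11b group against 32.8% of the other cells, and 45.0% in the lower CD8a group against 30.9%. Irf1 stood at 264.5 CPM in them against 136.7 in the other cells, Irf5 at 114.5 against 76.8, Irf2 at 98.1 against 127.3 and Irf4 at 79.3 against 114.7. The type 1 dendritic cell list summed to 63.5 CPM in them against 94.4 in the 4404 other cells. Of its members, Clec9a stood at 1.56 against 0.29 CPM (7 against 22 UMIs), and Xcr1 had 0 UMIs in them against 10 in the other cells. The plasmacytoid list summed to 882 CPM in them against 891 in the other cells, and its member Siglech to 2.90 against 0.17 CPM, or 13 UMIs each. Macrophage markers were carried by 3.72% of them against 1.86% of the other cells, and B cell markers by 5.79% against 5.09%. Among cells without markers of other types, Irf1 stood at 286.1 CPM in 209 cells with at least 3 Irf8 UMIs against 140.8 in 3725 other cells, and Irf5 at 121.5 against 79.2. The 183 cells with at least 3 Irf4 UMIs were most frequent in BFP-RFP+ cells, at 6.3% against 2.7% in BFP+RFP+, 3.8% in BFP+RFP- and 2.9% in BFP-RFP- cells. Of these, 51.9% were in the upper CD172a group, against 34.1% of the other cells.

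Across 36 groups of cells made by population, CD11b group and CD301b group, Irf8 ran from 39.9 to 214.6 and Irf4 from 60.1 to 165.5 CPM. The genes with the pattern most like that of Irf8, by Pearson r of log2 levels among 6309 genes, were Fgl2 (0.86), Psap (0.85), Clec7a (0.85), Rab32 (0.85) and the gene model Gm21188 (0.84). For Irf4 they were Iqgap1 (0.89), Plagl2 (0.85), Cd80 (0.79), Niban1 (0.78) and Klf7 (0.78). Clec7a encodes the receptor Dectin-1, and Cd80 encodes a costimulatory ligand. Among the members, Irf8 had its highest r with Irf1 at 0.66, then Irf5 at 0.58, and had -0.54 with Irf2 and -0.39 with Irf4. The groups come from the same libraries, so these values are descriptions without a test.

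Genes that work with or under the IRFs were described by list. Of 20 genes in the pathways that activate IRF3, IRF5 and IRF7, 6 were higher and 1 lower by at least 0.5 with CD11b, where 7.59% of all genes were higher and 11.3% lower, with a median of 0.16 against -0.09 for all genes. With CD8a 1 was higher and 4 were lower, where 4.00% of all genes were higher and 9.77% lower (median -0.19 against -0.09 for all genes). Unc93b1, which carries nucleic acid-sensing Toll-like receptors to endosomes, stood at 46.5 CPM in the upper against 20.3 in the lower CD11b group, and at 22.1 in the upper against 48.4 in the lower CD8a group. By population it stood at 18.7 in BFP+RFP+, 31.5 in BFP-RFP+, 28.8 in BFP+RFP- and 48.3 in BFP-RFP- cells. The macrophage and monocyte list, given above, also differed by CD11b, by CD8a and between BFP+ and BFP- cells in these directions. Without the cells carrying markers of other types, Unc93b1 by CD11b was 1.52 (1.32 to 1.74) and by CD8a -0.94 (-1.12 to -0.77). By population it was then 14.4 CPM in BFP+RFP+, 22.7 in BFP-RFP+, 23.0 in BFP+RFP- and 33.7 in BFP-RFP- cells.

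Of 12 IRF partners and corepressors with enough counts in the RFP comparisons, out of 14, 1 was higher and 1 lower within BFP+ (median -0.01) and none within BFP- (median 0.04). Spib, an ETS factor of plasmacytoid dendritic cells, was higher in RFP+ cells, at 42.8 in BFP+RFP+ against 28.6 CPM in BFP+RFP- cells (0.58). Without BFP it stood at 38.8 in BFP-RFP+ against 29.5 CPM in BFP-RFP- cells (0.39). Spi1, which encodes PU.1, was higher with CD11b by 0.61. Of 13 partners and corepressors with enough counts by CD11b, 2 were higher and 1 lower, where 7.59% of all genes were higher and 11.3% lower. The list median was -0.23, against -0.09 for all genes. Spi1 was not recomputed without the cells carrying markers of other types. Of 13 interferon receptors, kinases and STATs, 1 was higher in each RFP comparison, Socs3, a feedback inhibitor of cytokine receptors, at 0.63 and 0.66, with list medians of 0.02 within BFP+ and -0.06 within BFP-.

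Of 19 genes linked to IRF1 and interferon gamma, 1 was higher and 4 were lower in RFP+ cells within BFP- (median -0.12), and none was higher and 1 lower within BFP+ (median -0.15). The chemokine gene Cxcl9 was the 1 lower within BFP+ at -0.56, and stood at 28.6 CPM in the upper against 4.31 in the lower CD11b group. Without the cells carrying markers of other types its RFP ratio within BFP+ was -0.35 (-0.76 to 0.04), with 0 inside the interval, and it stood at 10.3 in the upper against 4.64 CPM in the lower CD11b group. Ciita, the master regulator of MHC class II genes, was higher in RFP+ cells at 0.50 within BFP+, just under the boundary, and 0.64 within BFP-. Of 13 genes linked to IRF4 in dendritic cells with enough counts, out of 14, 2 were higher and 1 lower within BFP+ and 4 higher and 1 lower within BFP-, with medians of -0.03 and -0.16. Of 13 genes linked to IRF8, 3 were higher and 1 lower within BFP+ and 2 higher and 2 lower within BFP-, with medians of 0.06 and -0.08. In the order of the RFP comparisons within BFP+ and within BFP-, 4.34% and 5.21% of all genes were higher and 6.79% and 3.91% lower, with medians of -0.03 and -0.01. By CD11b, 5 of 13 genes linked to IRF8 and 4 of 13 linked to IRF4 were higher and none was lower. By CD8a, none linked to IRF8 was higher or lower, and 3 linked to IRF4 were higher and 2 lower. Of all genes, 7.59% were higher and 11.3% lower by CD11b, and 4.00% and 9.77% by CD8a. These lists were not recomputed without the cells carrying markers of other types.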

How the data were processed

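The deposited values are raw UMI counts per barcode for 22548 genes, 4 antibody tags and 4 hashtags, and per the file headers they come from Cell Ranger 7.0.0. The genome build was GRCm39 (mm39), per the submitters' processing notes. Cell-calling settings and whether intronic reads were counted are not stated in the sources. Of 6079 barcodes, 5380 (88.5%) passed the hashtag share and 5023 were kept after the limits on UMIs and mitochondrial UMIs, with 14140272 to 35590897 mRNA UMIs per population. Doublets with 2 hashtags were removed by that share, and doublets within a population were not. Counts were summed per population or tag group and scaled to UMIs per 1000000 mRNA UMIs (CPM). Log2 ratios have 0.5 UMI added. Intervals are exact 95% intervals (Poisson for levels, conditional binomial for ratios, Clopper-Pearson for shares). The exceptions are the differences of BFP ratios between RFP states, whose 95% intervals come from a normal approximation. All intervals cover counting error only. Genes with at least 100 UMIs in a comparison gave the percentiles and percentages over all genes. Python 3.11.15 with numpy 2.4.6, scipy 1.17.1 and pandas 2.3.3 was used, with edgeR 4.0.16 (TMM), DESeq2 1.42.0 (size factors) and Seurat 5.3.0 (HTODemux) for alternatives. The ratio procedure was run on simulated Poisson counts, the same assumption that the intervals make. That run cannot show whether the intervals hold for counts that vary between cells. The 5 genes named as most like Irf4 and Irf8 had the highest r among genes with at least 1000 UMIs. Other genes are list members, named after their values were seen. The members and lists were chosen with earlier results of these data known. Promoter windows came from RefSeq.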

Additional observations from a re-analysis of the deposited data

Results flagged for a closer look

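Opposite directions in different populations were found for Irf4 and Irf1, each with counting intervals clear of 0 under the main scaling. With 1 sample per population, the difference between populations was not tested. Irf4 was lower in BFP+ than in BFP- cells within RFP+, at a log2 ratio of -0.12, and higher within RFP-, at 0.13. With TMM and with DESeq2 size factors the ratio of Irf4 within RFP+ was -0.025 and -0.018, and its interval held 0. In the upper over the lower CD11b group, Irf4 stood at 0.27 in BFP-RFP+ cells but at -0.26 in BFP+RFP+, -0.29 in BFP+RFP- and -0.53 in BFP-RFP- cells.

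Irf1 in the upper over the lower CD11b group stood at -0.17 in BFP+RFP+ cells, against 0.21 in BFP-RFP+ and 0.44 in BFP+RFP- cells. By CD172a it stood at 0.19 in BFP-RFP+ and 0.30 in BFP+RFP- cells, against -0.38 in BFP-RFP- cells. By CD301b it stood at -0.16 in BFP+RFP+ cells, against 0.31 in BFP-RFP+ and 0.24 in BFP+RFP- cells.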

How the results depend on the processing

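No paired analysis was possible because the 4 populations have no replicates, and none could be left out. Of 304 alternative values of the Irf4 and Irf8 ratios, shares and cell classes, 242 moved by less than their counting interval, 62 moved further and none changed the sign of a ratio whose interval excluded 0. Irf8 in BFP+ over BFP- cells within RFP-, whose interval reached 0, became 0.023 with a hashtag share of 60% and 0.0021 with TMM. Among the other members, the ratio of Irf2 by CD301b turned to 0.045 with centred log ratios of the tags, against -0.22. Causes of the moves were not tested beyond what the settings change.

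With a hashtag share of 60%, Irf8 stood at -0.27 for BFP within RFP+, -0.64 for RFP within BFP+ and -0.90 by CD8a, and the Irf4 share at 60.8% in BFP+RFP+ and 44.7% in BFP-RFP- cells. Without cells carrying markers of other types, Irf4 by CD11b was -0.33, Irf8 -0.64 for BFP within RFP+ and -1.01 for RFP within BFP+, and the Irf4 share 68.0% in BFP+RFP+ and 61.2% in BFP-RFP+ cells. With a stricter definition of such cells, chosen after seeing the data, Irf4 by CD11b was -0.30. Irf4 for BFP within RFP+ was -0.025 with TMM and -0.018 with DESeq2 size factors. Without the deepest 10% of cells, Irf4 was -0.41, 0.43, 0.33 and 0.17 by CD11b, CD8a, CD172a and CD301b, and Irf8 -1.08 by CD8a. With equal weight per cell, Irf4 was -0.32 by CD11b and 0.42 by CD8a, and Irf8 1.04, 0.65 and 0.51 by CD11b, CD172a and CD301b.

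With centred log ratios, Irf4 was -0.56, 0.27, 0.37 and 0.10 by CD11b, CD8a, CD172a and CD301b, and Irf8 -1.51, 0.26 and 0.23 by CD8a, CD172a and CD301b. With tag UMIs per mRNA UMI, Irf4 was -0.45, 0.35, 0.33 and 0.10, and Irf8 -1.31, 0.60 and 0.40, for the same tags. Between the upper and lower 10% of cells by tag, Irf4 was -0.29, 0.66 and 1.06 by CD11b, CD8a and CD172a, and Irf8 1.54, -1.35, 0.84 and 0.49 by CD11b, CD8a, CD172a and CD301b. In BFP+RFP+, then BFP-RFP+, then BFP+RFP-, then BFP-RFP- cells thinned to 10000 UMIs, more Irf4 was found in 46.7%, 47.6%, 39.8% and 32.4% and more Irf8 in 19.1%, 21.5%, 26.7% and 34.1%. Without thinning the values were 52.7%, 48.2%, 43.3% and 35.3%, and 17.8%, 23.0%, 26.9% and 32.4%.

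Over the 8 comparisons, 7.97% to 18.9% of all genes passed 0.5 in size. That became 26.9% to 39.9% over genes with at least 1 UMI, 2.58% to 9.68% over genes with at least 1000 UMIs, and 1.72% to 7.37% for a log2 ratio of at least 1.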

Other observations

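Irf7, which drives type I interferon production, lay outside the list and differed by more than any member between BFP+ and BFP- cells and by CD11b and CD8a. It was lower in BFP+ than in BFP- cells, at 42 UMIs (3.0 CPM) in BFP+RFP+ against 146 UMIs (9.3) in BFP-RFP+ cells and 142 UMIs (4.0) in BFP+RFP- against 113 UMIs (7.6) in BFP-RFP- cells. By CD11b it stood at 10.6 CPM in the upper against 2.71 in the lower group, and by CD8a at 4.04 in the upper against 10.5 in the lower group. Macrophage and monocyte markers differed in the same directions between these populations and tag groups. Without the cells carrying markers of other types, the log2 ratio of Irf7 in BFP+ over BFP- cells was -2.60 (-4.07 to -1.54) within RFP+ but 0.64 (-0.08 to 1.48) within RFP-. By CD11b it was then 3.69 (2.69 to 5.12) and by CD8a -2.47 (-3.22 to -1.82), at levels of 5.01 CPM or less in every group.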
